A study of Rattus norvegicus with 6 samples.

Results

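AMPA and NMDA receptors are the ionotropic glutamate receptors that carry fast excitatory transmission, and the genes for 9 of their subunits were followed here in rat dorsal root ganglia (DRG), the ganglia that hold the cell bodies of sensory neurons. The members were Gria1, Gria2 and Gria4 (AMPA receptor) and Grin1, Grin2a, Grin2b, Grin2c, Grin2d and Grin3a (NMDA receptor). A CpG was assigned to a member when the deposited annotated table named a transcript of that gene as the nearest start. By this rule 23 of the 32674 nuclear CpGs of the table belonged to 5 of the 9 genes, 10 to Grin3a, 6 to Grin2a, 3 to Grin2b, 3 to Gria4 and 1 to Gria2. Gria1, Grin1, Grin2c and Grin2d had 0 CpGs in it and are named only. A further set of 69 CpGs, which includes the 23, lay within 2 kb of these CpGs and were read at least 10 times in every one of the 6 libraries.

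AMPA receptors are tetramers of GluA subunits, and the subunit encoded by Gria2 limits their calcium permeability. NMDA receptors combine the obligatory subunit from Grin1 with subunits from the Grin2 genes, which set channel kinetics and magnesium block, or from Grin3a, which lowers calcium permeability. In the DRG these subunits are made by sensory neurons, which carry glutamate receptors to their central and peripheral terminals.

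The study measured DNA methylation by reduced representation bisulfite sequencing (RRBS), which reads CpGs near MspI sites (CCGG). The SNL group held 3 libraries from DRG of adult male Sprague-Dawley rats taken 3 weeks after spinal nerve ligation, a model of neuropathic pain made by tightly tying the spinal nerves L5 and L6 on the left. The Sham group held 3 libraries taken after surgery without ligation, which the labels place on the opposite side of the body. Methylation is the percent of reads at a CpG that kept C after bisulfite treatment, in a mixture of neurons, glia and other ganglion cells. A change in the cell mixture and a change within 1 cell type cannot be told apart in such data. Of 24 marker genes listed for these cell types, only Pdgfrb, a gene of vessel-associated cells, had a CpG in its promoter in the table, so the tissue label was not checked further. Coverage summed over CpGs ran from 27247702 to 34293779 per library. Mean methylation over the annotated CpGs was 67.3% ± 0.79 (SD, n = 3) in SNL and 68.2% ± 0.43 (SD, n = 3) in Sham, a difference of -0.92 percentage points that lies beside every difference below.

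The libraries were not unrelated across the groups. At 56 annotated CpGs (0.171%) the 3 libraries of each group spanned 30 points or more, a limit chosen after the data were seen. Over these, SNL 2 and Sham 2 differed by a median of 1.82 points, with 55 of 56 within 15 points. SNL 3 and Sham 1 differed by a median of 2.21 points, with 56 of 56 within 15 points. SNL 1 was closest to Sham 3, with a median of 8.68 points and 31 of 56 within 15 points. Sham 3 itself was closer to SNL 2 (median 4.94 points, 32 of 56) and to Sham 2 (8.03 points, 32 of 56). Whether libraries of the 2 groups came from 1 animal was not tested, and the labels do not say that the libraries came from separate animals, so p-values measure only the spread between these libraries. The tests, SEs and overlaps below treat the libraries as unpaired, and no fit with these alike libraries as pairs was made.

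The CpGs read within 2 kb of the starts of the receptor genes were nearly unmethylated in both groups. Within 2 kb of the start, a window added after the data were seen, 46 CpGs had coverage of 10 or more, with 21 at Grin3a, 12 at Grin2b, 8 at Grin2a, 5 at Gria4 and 0 at Gria2. At Grin3a their means over the 6 libraries ran from 0% to 6.05%, at Grin2b from 0% to 7.73%, at Grin2a from 1.39% to 3.98% and at Gria4 from 0.56% to 4.98%. The nearest CpG lay 141 bases from the start at Grin3a and 144 at Gria4, but 822 at Grin2a and 1131 at Grin2b. Sequence closer to the starts of Grin2a and Grin2b was thus not read at this coverage. Most of the 46 CpGs were covered by few reads, down to 10 in a library, so a difference of a few points was not detectable at this depth at single CpGs. Summed over the window, Grin2b read 4.33%, 4.51% and 2.97% in SNL 1 to 3 and 2.83%, 2.22% and 2.64% in Sham 1 to 3. Each SNL value at Grin2b was above each Sham value, by as little as 0.14 points between the nearest libraries. Grin3a read 2.67%, 2.83% and 2.56% in SNL and 3.14%, 3.77% and 3.19% in Sham, with each SNL value below each Sham value. Grin2a, at 3.81% ± 1.37 in SNL and 2.60% ± 1.05 in Sham, and Gria4, at 2.26% ± 0.75 and 1.73% ± 0.67 (SD, n = 3 each), overlapped between the groups. These sums were not tested, and no share of apart sums over the starts of all genes was computed. At single CpGs, 0 of the 46 were apart in either direction, beside 6.62% of all CpGs at coverage 10 with SNL lower and 3.59% with SNL higher. The median level was 2.31% over the 46 and 78.7% over all. Many of the 46 read 0% in libraries of both groups, and such ties cannot be apart. That count of 0 is therefore no result about the starts.

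Promoter sequence from RefSeq (assembly GRCr8) was at hand for Grin3a and Gria4 among the 5 genes with CpGs, and is shown because it holds CpGs whose low methylation was read. The capitals mark those CpGs, placed by their distance from the start after a shift of 1 base, the best of 5 shifts tried. At that shift 18 of 18 read positions of Grin3a and 4 of 4 of Gria4 fell on a CpG of the RefSeq entry, which runs past the start. The 250 bases before the start, both on the minus strand at chr5:69001559-69001808 for Grin3a and chr8:10319882-10320131 for Gria4, are, 5′ to 3′:
Grin3a: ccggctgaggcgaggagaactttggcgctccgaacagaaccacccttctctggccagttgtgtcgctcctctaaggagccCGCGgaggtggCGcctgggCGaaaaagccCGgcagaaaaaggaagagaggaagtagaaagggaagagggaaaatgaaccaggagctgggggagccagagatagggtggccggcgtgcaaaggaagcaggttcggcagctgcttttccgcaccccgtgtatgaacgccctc
Gria4: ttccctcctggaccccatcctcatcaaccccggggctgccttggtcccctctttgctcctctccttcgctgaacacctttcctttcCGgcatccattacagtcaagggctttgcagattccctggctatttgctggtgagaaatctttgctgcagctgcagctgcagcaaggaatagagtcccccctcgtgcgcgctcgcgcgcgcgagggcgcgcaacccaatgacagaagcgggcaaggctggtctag
The Grin3a stretch holds 16 CpGs and 3 CCGG motifs, and the Gria4 stretch holds 14 CpGs and 2 CCGG motifs (a motif that reads the same on both strands). Over 33469 RefSeq promoters of the same length, 46.2% hold a CCGG and the median number of CpGs is 5. At the capitalised CpGs of Grin3a the group means lay between 0% and 6.78%, and the CpG of Gria4 read 1.52% in SNL and 1.85% in Sham.

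**Figure D1:**
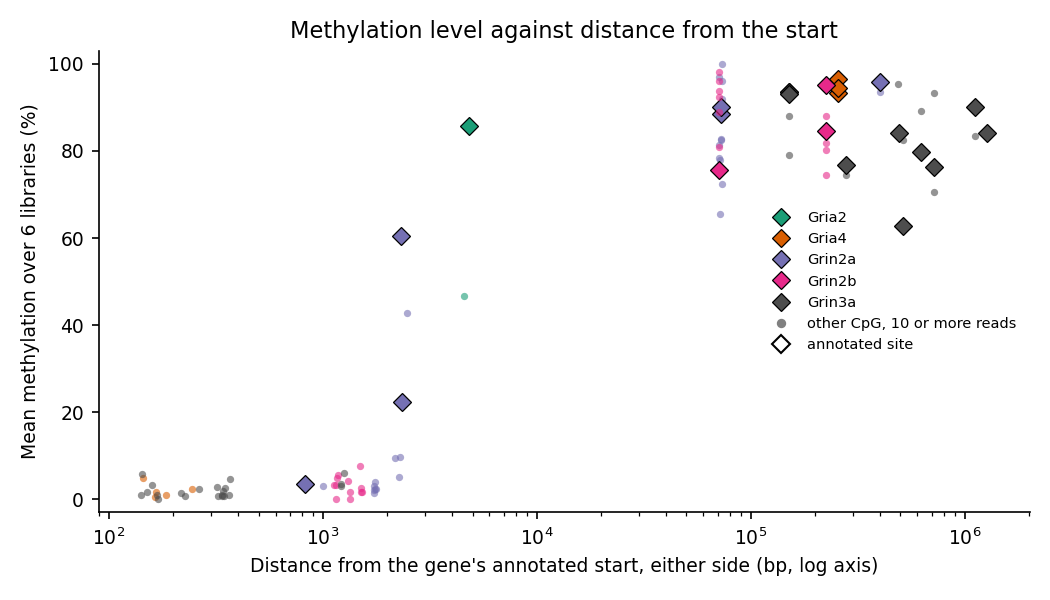
Mean methylation over 6 libraries (%) against distance from the annotated start (bp, log axis) for CpGs of the 5 genes. Diamonds are the 23 annotated CpGs and small points are other CpGs with 10 reads or more. CpGs within 2 kb of a start lie under 8%, and 15 of the 23 diamonds lie over 80%.

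Away from the starts the CpGs were highly methylated. Of the 23 annotated CpGs, 15 had a mean over 80% and 1 was under 20%. By the table's flags 17 were intergenic, 6 intronic, 1 in a promoter and 3 in CpG island shores, with 0 in exons or islands. They lay far from the starts to which they are assigned, with 16 of 23 (69.6%) beyond 100 kb against 32.6% of all annotated CpGs. The gene name of such a CpG gives the nearest start and not a regulatory link.

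No receptor gene passed the test between SNL and Sham when the reads of its annotated CpGs were summed. Of all 8016 genes 0.536% passed, at an adjusted p under 0.05 in a logistic regression with moderated overdispersion, and 0 of the 5 receptor genes did. A count of 0 among 5 is near that share and is no result about these genes. All 5 were lower in SNL on average, as were 66.9% of all genes, whose median difference was -0.79 points. The median of the 5 was -2.23 points.

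Grin3a had the lowest p of the 5. It read 81.2%, 79.5% and 79.6% in SNL 1 to 3 and 81.4%, 84.6% and 84.5% in Sham 1 to 3. The groups did not overlap, although SNL 1 and Sham 1 were 0.19 points apart. The difference was -3.37 points ± 1.17 (SE; adjusted p = 0.181).

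Gria4, an AMPA receptor subunit with fast gating, read 93.8%, 95.03% and 92.0% in SNL and 96.4%, 95.4% and 95.8% in Sham. Each SNL value was again below each Sham value, and the difference was -2.23 points ± 0.92 (SE; adjusted p = 0.305). Of all genes 15.8% were apart with SNL lower and 3.69% with SNL higher, beside 2 and 0 of the 5 receptor genes.

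The other 3 genes overlapped between the groups. Grin2b read 86.1%, 83.2% and 82.8% in SNL and 87.5%, 86.6% and 85.6% in Sham (-2.53 points ± 1.19 SE; adjusted p = 0.544). Grin2a read 65.0%, 58.2% and 63.1% in SNL and 67.1%, 59.4% and 63.2% in Sham (-1.14 points ± 2.99 SE; adjusted p = 0.855). The 1 annotated CpG of Gria2 read 87.7%, 83.7% and 83.8% in SNL and 87.0%, 86.7% and 85.8% in Sham (-1.42 points ± 1.39 SE; adjusted p = 0.784). Without SNL 2 or without Sham 1 the Grin2a difference turned to 0.80 or 0.79 points.

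**Figure D2:**
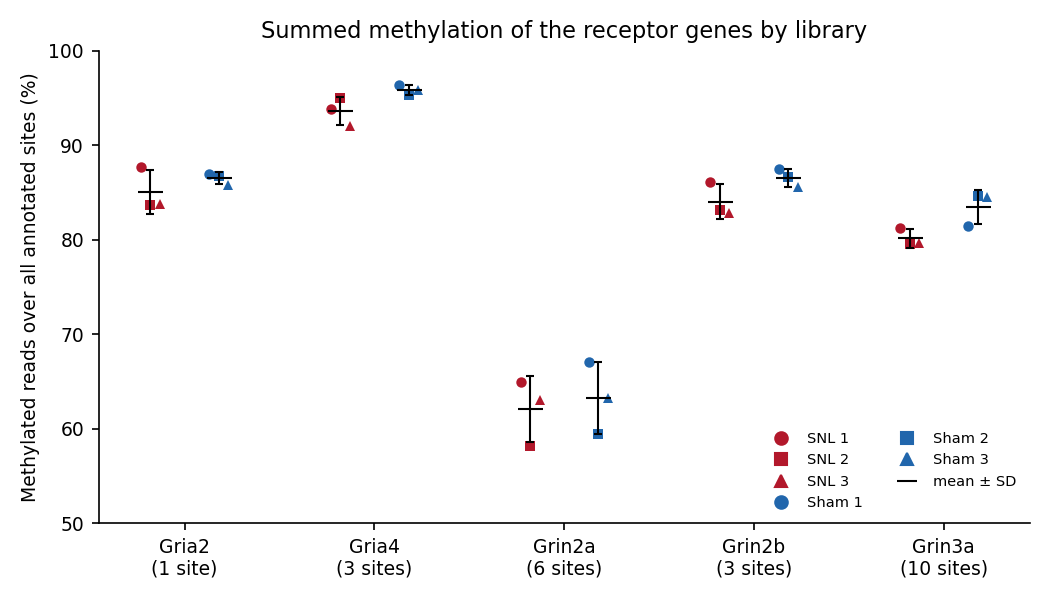
Percent of methylated reads summed over the annotated CpGs of each gene, by library (vertical axis from 50%), with group means ± SD (n = 3). Gria4 and Grin3a are the genes in which all SNL points lie below all Sham points, and Grin2a is the lowest of the 5.

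CpG by CpG, 19 of the 23 receptor CpGs were lower in SNL, with a median difference of -2.66 points, beside 61.3% and -0.55 points over all annotated CpGs. None of the 23 passed the test, which 1.27% of all annotated CpGs passed, and 5 of the 23 had an unadjusted p under 0.05, beside 13% of all. At 6 of the 23 every SNL library was below every Sham library, beside 13.2% of all CpGs, and at 0 every SNL library was above, beside 4.64%. The 6 were 3 CpGs of Grin3a, 2 of Gria4 and 1 of Grin2b. Summed over the 16 loci that these CpGs form, 0 passed, beside 1.84% of 18299 loci. That 0 of 23 CpGs and 0 of 16 loci passed is near these shares and is no result about the receptor genes. The 23 are not independent, since neighbouring CpGs share reads.

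**Figure D3:**
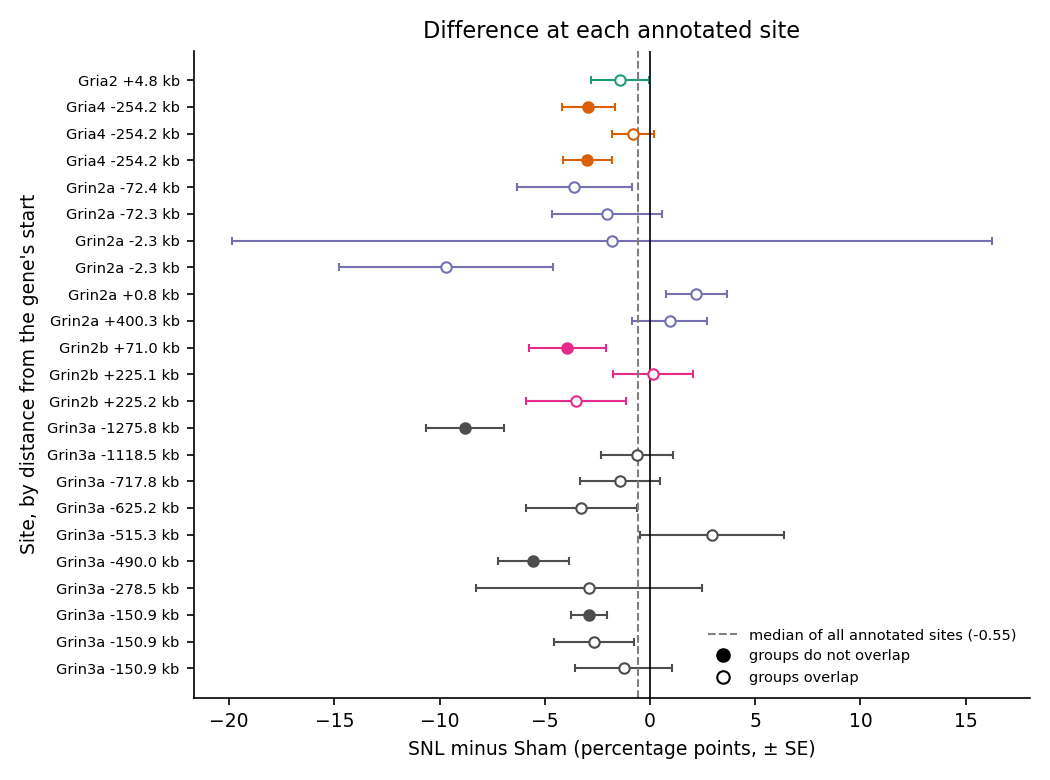
SNL minus Sham (percentage points, ± SE from 3 libraries each) at each of the 23 annotated CpGs, labelled by gene and distance from its start. Filled points mark the 6 CpGs where the groups do not overlap, all to the left of 0, and the dashed line is the median of all annotated CpGs.

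The Grin3a CpGs lay 150.9 to 1275.8 kb upstream of the start, all of them intergenic. The one with the lowest p lay 490.0 kb upstream (chr5, position 67092155, rn4) and was among the most deeply read, with 566 to 807 reads per library. It read 83.6%, 80.05% and 80.1% in SNL 1 to 3 and 84.6%, 86.9% and 88.9% in Sham 1 to 3. The groups did not overlap, and the difference of -5.55 points ± 1.69 (SE) had an adjusted p of 0.0834. Without SNL 1 the CpG passed, with a difference of -6.71 points and an adjusted p of 0.042, and over the leave-outs of each library the adjusted p ran from 0.042 to 0.331. Other fits gave this CpG a higher or a lower adjusted p. It was 0.156 with the replicate number as a block, 0.42 with limma on logit values and 0.805 with unmoderated overdispersion. Under 4 other rules for the moderation, given below, it ran from 0.0723 to 0.109. In the authors' deposited table the q-value of this CpG is 0.0319.

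The Grin3a CpG farthest from the start, 1275.8 kb upstream (position 67877911), had the largest difference between groups of the 10. It read 82.8%, 76.6% and 79.8% in SNL and 88.2%, 88.0% and 89.3% in Sham from 158 to 208 reads. The nearest libraries of the groups were 5.24 points apart, and the groups differed by -8.79 points ± 1.83 (SE; adjusted p = 0.107). The adjusted p was 0.160 with the replicate number as a block, 0.331 with limma on logit values and 0.805 with unmoderated overdispersion. It ran from 0.0992 to 0.137 under the 4 other rules for the moderation and from 0.0784 to 0.323 over the leave-outs of each library. The authors' deposited table gives this CpG a q-value of 0.0052. These 2 CpGs are the receptor CpGs with a q-value under 0.05 in the authors' deposited table, in which 4.54% of all annotated CpGs have one. The larger difference was singled out after its values were seen.

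The other 8 Grin3a CpGs did not share 1 pattern. The 3 at 150.9 kb, within 32 bases of each other, had group means of 91.5% to 94.8%, and 1 of them had no overlap (91.5% ± 0.78 in SNL, 94.4% ± 1.27 in Sham, SD, n = 3 each; adjusted p = 0.55). The CpG at 515.3 kb was the least methylated and the one that was higher in SNL, at 64.3% ± 0.64 against 61.4% ± 5.88 (adjusted p = 0.791). The Sham libraries at that CpG ran from 56.7% to 68.0% while the SNL libraries stayed within 63.7% to 65.0%. At 278.5 kb, 625.2 kb, 717.8 kb and 1118.5 kb the groups overlapped, with differences of -2.92, -3.26, -1.43 and -0.62 points.

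**Figure D4:**
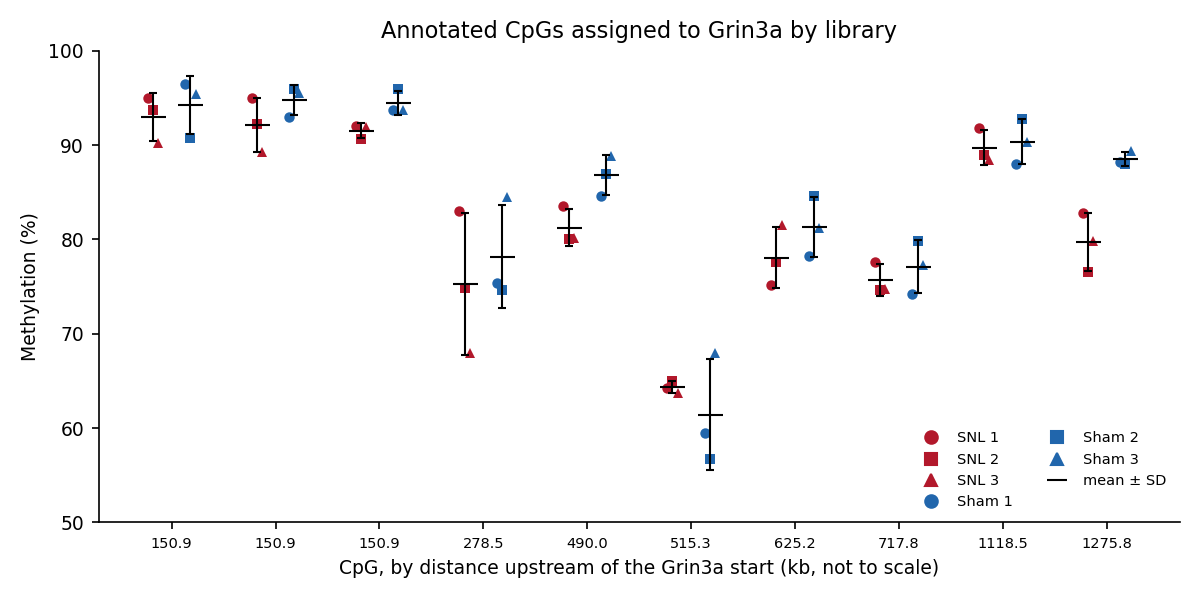
Methylation (%, axis from 50%) of the 10 annotated CpGs of Grin3a in each library, ordered by distance upstream of the start (kb, not to scale), with group means ± SD (n = 3). The groups are apart at one of the 3 CpGs at 150.9 kb, at 490.0 kb and at 1275.8 kb.

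The 3 Gria4 CpGs lay 254.2 kb upstream of the start within 37 bases of each other (chr8, positions 1692473 to 1692510) and were read 245 to 301 times. The farthest, with the lowest p, read 92.4%, 95.4% and 91.2% in SNL and 96.2%, 95.6% and 95.9% in Sham. That CpG differed by -2.93 points ± 1.27 (SE; adjusted p = 0.337), and the nearest of the 3 by -2.98 points ± 1.15 (SE; adjusted p = 0.377). The groups were apart at both, by 0.23 and 0.56 points between the nearest libraries. The middle CpG overlapped, with a difference of -0.80 points.

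Grin2b encodes a subunit prominent in early development, and its 3 CpGs lay in introns, 71.0 and 225.1 kb inside the gene. The CpG with the lowest p (225.2 kb, position 172958036 of chr4) read 87.5%, 80.6% and 80.5% in SNL and 86.3%, 87.4% and 85.5% in Sham. SNL 1 lay above all Sham libraries there, and the difference was -3.54 points ± 2.38 (SE; adjusted p = 0.637). At 71.0 kb the groups were apart, at 73.6% ± 2.54 in SNL and 77.5% ± 1.87 in Sham (SD, n = 3 each; adjusted p = 0.647). The single Gria2 CpG lay in an intron 4.8 kb from the start (position 172380473 of chr2), with the values given above. A CpG 243 bases from it, read 24 to 51 times, was much less methylated, at 52.7% ± 1.00 in SNL and 40.7% ± 6.92 in Sham.

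Grin2a encodes the subunit that gives fast NMDA receptor currents, and it was the gene whose annotated CpGs covered the widest range of levels. Its promoter CpG, 822 bases past the start and flagged in the table as intron and shore (position 5589049 of chr10), read 4.26%, 7.30% and 2.53% in SNL and 1.78%, 2.65% and 3.05% in Sham. The groups overlapped, and the difference was 2.20 points ± 1.44 (SE; adjusted p = 0.584). The CpG 2305 bases upstream of the start, with the lowest p of the gene, read 60.2%, 51.7% and 55.2% in SNL and 73.5%, 58.2% and 64.5% in Sham. SNL 1 lay above Sham 2 there, and the difference was -9.70 points ± 5.08 (SE; adjusted p = 0.342).

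The CpG 40 bases farther upstream differed more among the libraries of each group than between the groups. It read 21.6%, 0.67% and 41.9% in SNL 1 to 3 and 47.0%, 0% and 22.6% in Sham 1 to 3. In Sham 2 this was 0 of 123 reads, which allows a level of up to 2.44%, and in SNL 2 it was 1 of 150 reads (exact 95% interval 0.017% to 3.66%). SNL 3, with 44 of 105 reads (32.3% to 51.9%), and Sham 1, with 62 of 132 reads (38.2% to 55.8%), were the high libraries. SNL 2 with Sham 2 and SNL 3 with Sham 1 are the closest pairs named at the start. This was the receptor CpG among the 56 with a wide span in both groups. A CpG near it (position 5585767, 11 to 27 reads) was also highest in SNL 3 and Sham 1, at 65.0% and 59.3%, and was 27.3% to 36.8% in the other 4 libraries. Its exact 95% intervals overlapped, at 40.8% to 84.6% in SNL 3 and 38.8% to 77.6% in Sham 1 against, for example, 16.3% to 61.6% in Sham 3. At the CpG 2305 bases upstream Sham 1 was highest, at 73.5%, but SNL 3, at 55.2%, was below SNL 1 (60.2%) and Sham 2 (58.2%). These intervals and limits cover counting error only, since reads without molecular identifiers are not independent molecules. Over the CpG at 2345 bases the group difference was -1.81 points ± 18.0 (SE; adjusted p = 0.894). Without SNL 2 it was 8.56 points and without Sham 1 it was 10.1 points.

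**Figure D5:**
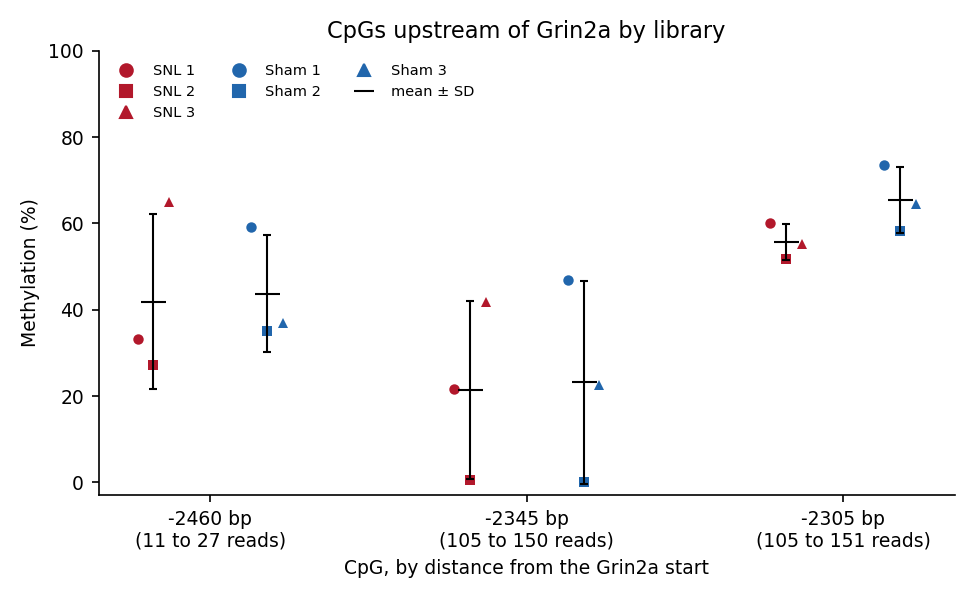
Methylation (%) in each library at 3 CpGs upstream of Grin2a, with group means ± SD (n = 3) and the range of reads per library. At the middle CpG SNL 2 and Sham 2 lie near 0% while SNL 3 and Sham 1 lie over 40%.

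Among the 69 CpGs at coverage 10, the 46 outside the annotated table were read less deeply and varied more. Over the 69, 43 were lower and 25 higher in SNL, with a median difference of -1.42 points beside -0.39 points over all 424646 such CpGs. At 7 every SNL library was below and at 4 every SNL library was above every Sham library, beside 6.62% and 3.59% of all. These counts include the 23 annotated CpGs. Over the other 46, 24 were lower and 21 higher in SNL, with a median difference of -0.50 points. Of these 46, 1 was apart with SNL lower (2.17%) and 4 with SNL higher (8.70%). Around Grin2a at 72 kb upstream, 2 of 16 CpGs were apart with SNL higher and 0 with SNL lower, while both annotated CpGs there were lower in SNL and overlapped. No CpG of the 424646 passed this fit (2.94% had an unadjusted p under 0.05), and in simulated data it recovered none of the changed CpGs, so that count says nothing about the receptor CpGs. Under 4 other rules for the spread, tried after that count was seen, 1264 to 1953 CpGs passed, and the Grin3a CpG at 490.0 kb was the receptor CpG among them (adjusted p from 0.00578 to 0.0216). At coverage 10 these rules gave the spread shared by all CpGs 170 or more degrees of freedom, against 4 for a CpG's own spread. These p-values therefore make almost no use of the spread between libraries at the Grin3a CpG. In the annotated table those 4 rules gave 290 to 464 calls in place of 415, and 0 of the 23 receptor CpGs.

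Of 55 genes listed as glutamate synapse partners, 35 had annotated CpGs, 174 in all, and 25 were lower and 10 higher in SNL, with a median of -0.64 points beside -0.79 over all genes. None of the 35 genes and none of their 174 CpGs passed, beside 0.536% of all genes and 1.27% of all annotated CpGs, so these counts of 0 are near the background and are no result about the partners. The 4 with the lowest p were Dlgap1, a postsynaptic scaffold gene (87.8% ± 0.85 in SNL, 89.4% ± 0.31 in Sham, SD, n = 3 each; adjusted p = 0.181), Cacng3, Nos1 and Slc17a6. Cacng3, an auxiliary subunit of AMPA receptors, was higher by 2.27 points (adjusted p = 0.262). Nos1, the neuronal nitric oxide synthase, was at 57.6% ± 3.72 and 61.7% ± 0.59 (adjusted p = 0.372), and Slc17a6, a vesicular glutamate transporter, at 83.1% ± 2.68 and 86.1% ± 1.46 (SD, n = 3 each; adjusted p = 0.43). By role, the 35 were 5 auxiliary subunits, 8 trafficking genes, 10 scaffold genes, 4 kinase and signalling genes and 8 transmitter supply genes.

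Among 2305 other genes with 5 or more annotated CpGs, those whose centred levels over the 6 libraries were most like Grin3a were Castor2, Mir17 and Lig4. Their mean absolute differences from Grin3a were 0.39, 0.40 and 0.40 points. Among 2305 genes some are always closest, and how close the nearest genes of other genes lie was not computed. The likeness is therefore no result about Grin3a or these 3 genes.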

How the data were processed

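Libraries were made from 1 µg of DNA of rats aged 8 to 9 weeks and read from 1 end over 50 bases, as the labels' protocols state. The submitters' processing notes list Bismark 0.18.1, Bowtie2, methylKit 1.3.3 and the rat assembly rn4. The protocol text names a human assembly instead, so rn4 is taken from the notes, and coordinates are as listed. Each library's deposited file gives the coverage of a CpG (a count of reads) and its percent of C, per the file headers. The deposited annotated table holds the percent per library, with the authors' p-value and q-value, their difference in percent, feature flags and the distance to the nearest start (negative is upstream). Its lowest coverage is 100 reads.

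Methylated counts were recovered here as coverage times percent. Of 8123 transcripts 7622 matched a symbol in a RefSeq gene table of GRCr8, used for names only. A logistic regression on group was fitted over all annotated CpGs, all CpGs at coverage 10, genes and loci (CpGs of 1 gene with gaps of 2 kb or less). Overdispersion was moderated across all features as in limma's squeezeVar (limma 3.58.1, R 4.3.3) and kept at 1 or above, with a two-sided F test and Benjamini-Hochberg adjustment at 0.05. A read over neighbouring CpGs enters a sum repeatedly. The fit was tested on simulated data with scipy 1.17.1, numpy 2.4.6, pandas 2.3.3 and Python 3.11.15, and plots used matplotlib 3.10.9. Intervals are exact (Clopper-Pearson) at 95%, and the limit for 0 reads is 3 reads of the total.

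Named were all members, each member's CpG with the lowest p, member CpGs within 2 kb of a start (as a range above 6), called partner genes or otherwise the 4 with the lowest p, and the 3 genes most like Grin3a. Any other CpG named was picked with its values in view. The members and lists were chosen with earlier results of these data known. Alternatives were library offsets, unmoderated overdispersion, limma on logit values (pseudocount 1), the replicate number as a block, other coverage limits, 1 CpG per 50 bases, the authors' q-value and each library left out. After the first calls were seen, 4 other rules for the features that set the moderation were also tried; the fit as first written was kept for all values unless stated.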

Additional observations from a re-analysis of the deposited data

How the results depend on the processing

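Of 415 annotated CpGs called, 249 were called with the replicate number as a block, 226 at coverage of 200 or more, 0 with unmoderated overdispersion, 0 with limma on logit values and 1484 by the authors' q-value, and 110 to 436 when 1 library was left out. The 43 genes called became 10 with the replicate block, 6 with limma and 0 unmoderated, and 3 to 74 when 1 library was left out. The 336 loci called became 200 with the block, 6 with limma and 0 unmoderated, and 90 to 427 when 1 library was left out. The cause was not tested. Deviations from the group mean correlated at -0.055, 0.256 and -0.135 between the libraries numbered 1, 2 and 3. The highest correlation across the groups was 0.341, between SNL 3 and Sham 1. The replicate numbers join SNL 2 and Sham 2, which were alike above, but not SNL 3 and Sham 1. No receptor CpG, gene or locus was called with the block or with library offsets. The offsets, which take out each library's mean level, gave 322 annotated CpGs, 43 genes and 289 loci called. With them the summed differences were -2.68 points at Grin3a, -1.98 at Gria4 and -1.88 at Grin2b. They were -0.80 points at Gria2 and -0.018 at Grin2a.

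Of the 23 receptor CpGs, 0 were called in every alternative fitted over the annotated CpGs except the authors' q-value (2) and the fit without SNL 1 (1, with 1 of 16 loci), so the leave-outs gave 0 to 1 for CpGs and 0 to 1 for loci. At coverage 10, 0 receptor CpGs were called, and 1 under each of the 4 other rules for the moderation (1953, 1952, 1753 and 1264 CpGs in all). Coverage limits of 20 and 50 in place of 10 gave 1 and 394 calls in all and 0 among the receptor CpGs.

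Over 407 refitted values of 28 receptor CpGs and genes, 391 kept their direction and side of the threshold, 1 passed it and 15 turned direction, all with 1 library left out and none past the threshold. Without SNL 1 these were 0.27 (Grin2a, 72333 bases upstream) and -0.11 points (Grin2a, 400255 bases). Without SNL 2 they were 8.56 (Grin2a, 2345 bases), -1.39 (Grin2b, 225133 bases) and 0.80 points (Grin2a sum). Without SNL 3 they were 0.14, 0.73 and 0.058 points (Grin3a, 150889, 278522 and 1118524 bases). Without Sham 1 they were 10.1 and -0.28 points (Grin2a, 2345 and 400255 bases) and 0.79 points (Grin2a sum). Without Sham 2 they were -0.069 (Grin2b, 225133 bases) and 0.58 points (Grin3a, 1118524 bases), and without Sham 3 they were -0.46 (Grin2b, 225133 bases) and 0.23 points (Grin3a, 278522 bases). Over all leave-outs these ranged from -3.27 to 0.27 (Grin2a, 72333 bases), -13.4 to 10.1 (2345 bases), -0.28 to 1.97 (400255 bases) and -3.05 to 0.80 points (sum), from -1.39 to 1.59 points (Grin2b, 225133 bases), and from -3.00 to 0.14, -6.79 to 0.73 and -1.79 to 0.58 points (Grin3a, 150889, 278522 and 1118524 bases).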
